A study of Mus musculus with 9 samples.

Results

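The resting transcriptome of control 4T1-TGL cells was described from 3 of the 9 RNA sequencing libraries of the study, the libraries titled as controls with replicate numbers 1, 2 and 3. 4T1 is a mouse mammary carcinoma line from a BALB/c mouse that spreads from the mammary gland to distant organs and is widely used as a model of metastatic breast cancer; the labels do not say what TGL stands for. The control cells were labelled wild type for Malat1, a nuclear long noncoding RNA, and the other 6 libraries came from 2 Malat1 knockout lines, 3 libraries each. All cells were of the BALB/c strain, were grown in DMEM/F12 medium and carried no other treatment in the labels. The knockout libraries were not used here, so every statement below is a level in control cells and none is an effect of Malat1. Nothing in the labels says that the 3 control libraries came from separate cultures, so the spread between them may be technical.

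Mammary epithelium has a luminal layer, which carries the keratins Krt8 and Krt18 and makes milk, and a basal layer with Krt5, Krt14, Trp63 and contractile proteins. Carcinoma cells can lose junction proteins such as E-cadherin and gain mesenchymal proteins such as vimentin, in part or in full. Tumour cells also secrete cytokines, chemokines and proteases that act on blood, stromal and immune cells, and the 4T1 line is known for raising neutrophil numbers in mice through granulocyte colony-stimulating factor, the product of Csf3.

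The unit throughout is FPKM, fragments per kilobase of transcript, scaled to a fixed number of mapped fragments. Because it is divided by length, levels of different genes may be set side by side. It does not correct for differences in how well RNAs were captured in a library. Each gene is given as its FPKM in replicates 1, 2 and 3, in that order, or as the mean ± SD with n = 3. The tables listed only genes at 0.01 FPKM or more, and a gene that was not listed was counted as 0. Such a gene may also be one that the sequencing provider's gene models did not hold. The libraries held between 32282316 and 35406395 estimated counts and listed between 16104 and 16254 genes each. A mean of 1 FPKM or more, used below as the line between present and low, was reached by 11482 of the 17521 identifiers listed in any of the 3 libraries. Of 21900 protein-coding genes in the RefSeq annotation, 10578 reached it, or 48.3%, and 7059 were not listed in any control library. That 48.3% is the background against which each gene list below is read. Another 1268 identifiers were unnamed models of the provider, which held between 6.36% and 6.56% of the summed FPKM of a library, and reads of a named gene that such a model overlaps may have been counted there.

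Ctrl replicate 2 stood apart from the other libraries. It was the library farthest from the mean of the 3 for 52.5% of the genes at 1 FPKM or more, against 29.0% for replicate 1 and 18.5% for replicate 3. The median coefficient of variation over those genes was 7.34% with all 3 libraries and 4.31% without replicate 2. Values are therefore given per library where a result turns on them, and the genes that moved with replicate 2 are described at the end.

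The markers set for these cells were all present, with small differences between libraries. The luminal keratin gene Krt8 was at 223, 204 and 217 FPKM, and its partner Krt18 at 233, 268 and 247. Every library had more Krt18 than the highest library had Krt8, at a mean ratio of 1.17 ± 0.134. Csf3 was at 84.2, 77.2 and 82.01 and Malat1, the gene deleted in the knockout lines, at 74.1, 58.1 and 69.5. Malat1 was lowest in replicate 2 but present in every library, as the wild-type label has it.

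The most abundant messages among the listed genes included those of translation, iron storage and secreted proteins. Eef1a1, a translation elongation factor, was highest of the named genes at 4659 ± 86.3 FPKM. Lgals1, which encodes the secreted lectin galectin-1, followed at 4150.0 ± 155, and the ferritin heavy chain gene Fth1 at 3015 ± 52.2. These 3 genes did not overlap between libraries, so their order was the same in each. Ptma, which encodes prothymosin alpha, stood at 2422, the secreted phosphoprotein osteopontin (Spp1) at 2121, and the isomerase gene Ppia at 2108, with libraries that overlapped. Of the 100 highest identifiers, 47 were ribosomal protein genes and 14 were unnamed models. The 10 highest identifiers of a library held 6.0% ± 0.0921 of its summed FPKM and the 100 highest 26.2% ± 0.189, so the RNA pool was spread over many genes. Levels from 10 to 100 FPKM were the most common class among identifiers that reached 1 FPKM, with 6188 of them, and only 45 identifiers had a mean of 1000 FPKM or more.

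**Figure D1:**
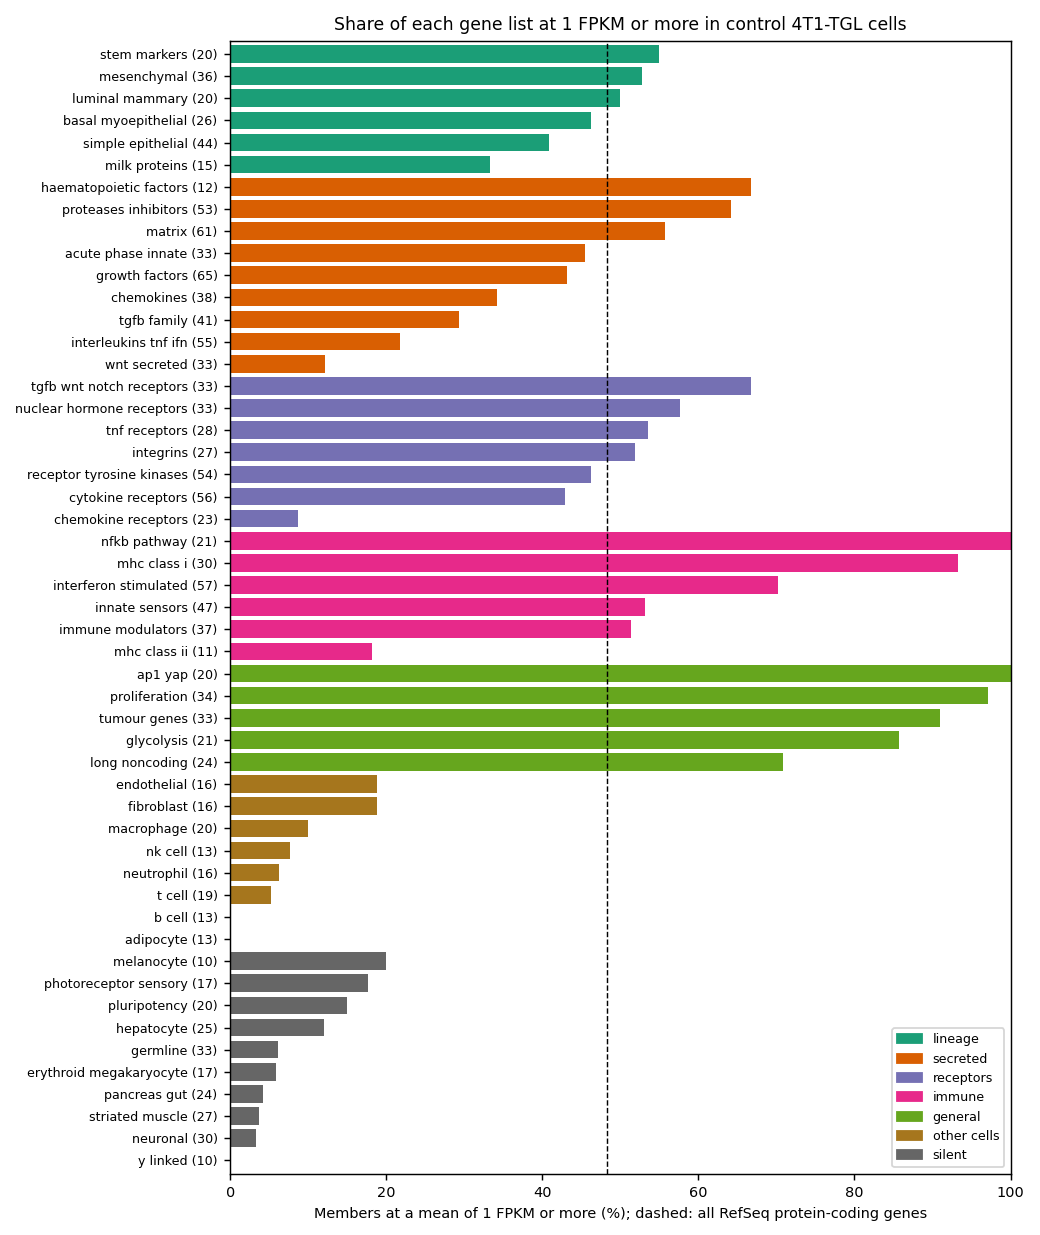
Share of the members of each of 51 gene lists with a mean of 1 FPKM or more in the 3 control libraries, in percent (bars; number of matched members in parentheses, colour by theme). The dashed line is the 48.3% of all RefSeq protein-coding genes. The NF-kB list and the AP-1 and YAP list stand at 100.0%, and the lists of other cell types and silent programmes all lie below the line.

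Simple epithelial genes were split. The luminal keratin genes Krt8 and Krt18 were high, while E-cadherin and several other genes of epithelial junctions were near 0. Of 44 genes on the simple epithelial list, 18 reached 1 FPKM, or 40.9% beside the background of 48.3%, and the list's median was only 0.20 FPKM. Besides Krt8 and Krt18, the genes present included Krt7 at 32.3, 31.1 and 31.4, the protease inhibitor gene Spint2 at 126, 149.7 and 138, and Cd24a, a surface glycoprotein gene, at 113, 68.6 and 82.8. The tight junction scaffold gene Tjp1 was at 57.98 and the junction adhesion molecule gene F11r at 28.4. Of other junction genes, Jup was at 7.85, Cgn at 4.81 and Ocln at 1.47. Elf3, an epithelial transcription factor gene, was at 6.897.

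Against these, Cdh1, which encodes E-cadherin, was listed at 0.01 FPKM in each of the 3 libraries. Epcam, the epithelial cell adhesion molecule, was at 0.27, 0.08 and 0.32, and Krt19 at 0.07, 0.1 and 0.35. The claudin genes Cldn3 and Cldn7, which encode tight junction strands, had means of 0.097 and 0.017, and the desmosome gene Dsp 0.033. Grhl2, a transcription factor gene of epithelia, had a mean of 0.067, while the splicing regulator gene Esrp1 and the transcription factor gene Ovol2 were not listed in any library. Esrp2, the paralogue of Esrp1, was present at 1.63, 2.47 and 1.82. In RNA from whole cultures, a few cells with such a gene and little RNA in every cell cannot be told apart. The genes on either side of Cdh1 were Cdh3, at 0.063 FPKM, and Tango6, at 2.26. Calm2, next to Epcam, was at 473. 4T1 cultures are commonly described as carrying E-cadherin; other cultures were not analysed here.

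**Figure D2:**
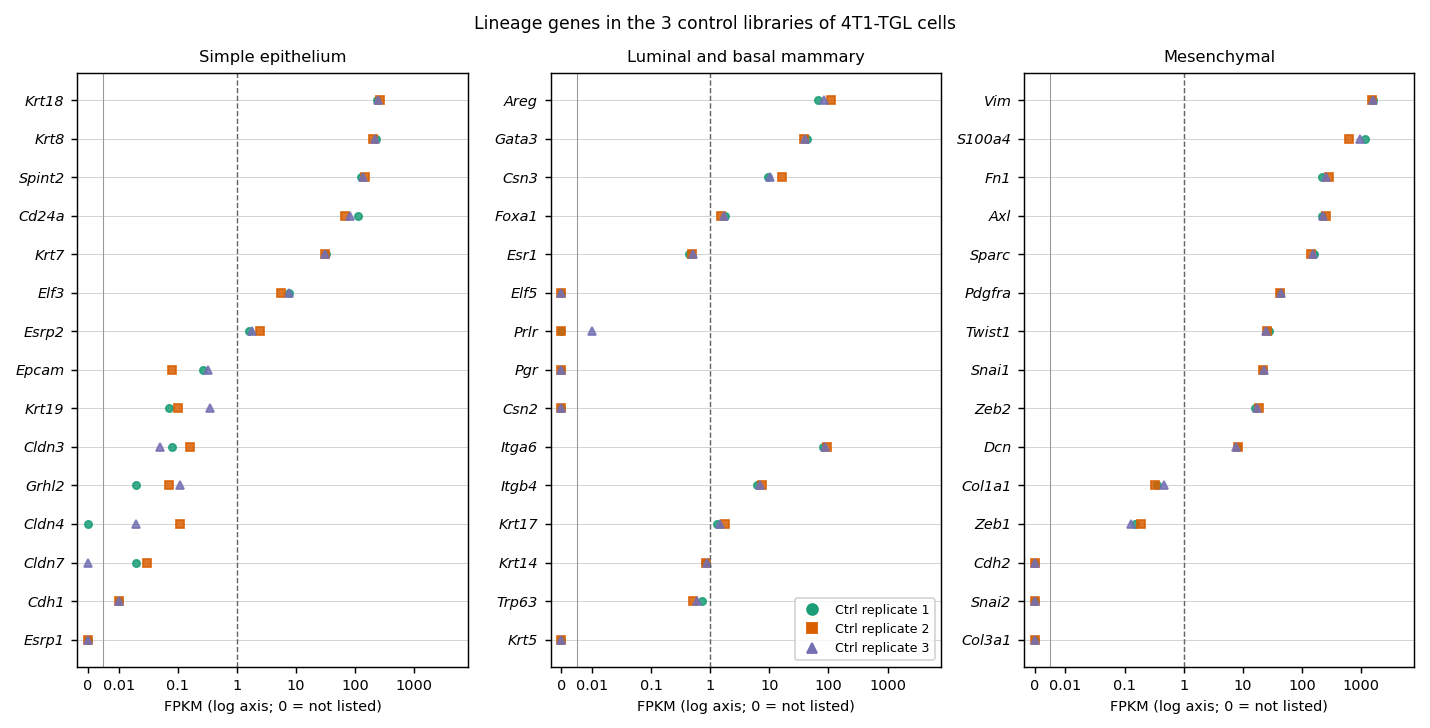
FPKM (log axis, points at 0 for genes not listed) of 45 lineage genes in control replicates 1, 2 and 3 (symbols). The dashed line marks 1 FPKM. Krt8, Krt18 and Vim lie above 100 FPKM in every library, while Cdh1 lies at 0.01 and Esrp1 at 0.

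The cadherin and claudin families as a whole were thinly expressed. Of 23 classical and atypical cadherin genes in the RefSeq table, 2 reached 1 FPKM, Cdh24 at 2.57 and Cdh17 at 1.58, and neither E-cadherin nor N-cadherin (Cdh2, not listed) was among them. Of 35 claudin genes, the sole one at 1 FPKM or more was Cldn12, at 21.3. Of 53 keratin genes, 6 reached 1 FPKM. After Krt18, Krt8 and Krt7 came Krt80 at 16.4, and then Krt17 and Krt10 at 1.5 and 1.2. None of the 56 keratin-associated protein genes of hair was listed.

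Sequences before the start sites are shown for epithelial genes on both sides of this split, because a motif is common among the promoters of the list. The windows run from 250 bases before to 50 bases after the RefSeq start on build GRCm38.p6 and are written in the direction of the gene, with the 6-base E-box CAGGTG or its reverse complement CACCTG in capitals. Krt18 lies at chr15:102027966-102028265 on the plus strand, Epcam at chr17:87635729-87636028 on the plus strand and Crb3, which encodes a polarity protein, at chr17:57061951-57062250 on the plus strand.
Krt18: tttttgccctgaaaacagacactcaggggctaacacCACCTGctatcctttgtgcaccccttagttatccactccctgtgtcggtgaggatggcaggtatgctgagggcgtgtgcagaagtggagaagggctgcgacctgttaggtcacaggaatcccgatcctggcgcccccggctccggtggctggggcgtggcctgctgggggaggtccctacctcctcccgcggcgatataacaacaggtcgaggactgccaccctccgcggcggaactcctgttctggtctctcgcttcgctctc
Epcam: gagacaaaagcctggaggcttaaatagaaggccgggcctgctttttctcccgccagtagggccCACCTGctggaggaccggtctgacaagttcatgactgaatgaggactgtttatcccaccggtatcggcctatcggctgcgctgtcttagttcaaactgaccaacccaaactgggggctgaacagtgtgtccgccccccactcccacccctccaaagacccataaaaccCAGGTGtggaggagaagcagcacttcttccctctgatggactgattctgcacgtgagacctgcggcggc
Crb3: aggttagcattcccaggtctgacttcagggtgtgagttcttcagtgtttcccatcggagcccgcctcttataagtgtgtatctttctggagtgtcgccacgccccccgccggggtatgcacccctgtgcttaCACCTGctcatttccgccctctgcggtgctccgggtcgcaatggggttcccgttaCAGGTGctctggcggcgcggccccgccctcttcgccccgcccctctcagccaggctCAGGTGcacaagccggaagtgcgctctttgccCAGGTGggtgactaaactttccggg
Krt18, at 249 FPKM, held 1 E-box, Epcam, at 0.22, held 2, and Crb3, at 0.063, held 4. Of the 28 simple epithelial genes that the promoter table holds, 20 carried at least 1 such E-box, or 71.4%. Among all 17492 protein-coding promoters in the table the share was 19.3%. A share this high was not particular to epithelial genes. The T cell list had 70% of 10 promoters and the B cell list 75% of 8, and the pluripotency list came next at 42.9%. Within the epithelial list, the motif was in 9 of the 13 promoters of genes at 1 FPKM or more. It was in 11 of the 15 promoters of genes below that level. Among all promoters in the table the shares were 16.0% at 1 FPKM or more and 22.4% below. The number of E-boxes was not tied to the level in these examples: Spint2, at 138 FPKM, held 3, Lsr, at 0.1, held 4, and Cldn7, at 0.017, and Ovol2, not listed, held none. Such E-boxes are known as sequences that Snai and Zeb proteins can bind, and a match in the letters is no more than a description.

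Luminal and basal mammary genes gave a mixed picture, and the counts of both lists were near the background. On the luminal list 10 of 20 genes reached 1 FPKM and on the basal list 12 of 26, or 50% and 46.2% beside 48.3%. The counts therefore do not set either layer apart. Gata3, the main luminal transcription factor gene, was at 42.7, 38.1 and 40.7. Its pioneer partner gene Foxa1 was at 1.78, 1.54 and 1.74, all far below Gata3. Esr1, which encodes the oestrogen receptor, was at 0.43, 0.49 and 0.51, below 1 FPKM in every library. Pgr, the progesterone receptor gene, and Elf5, a regulator of alveolar cells, were not listed, and Prlr, the prolactin receptor gene, had a mean of 0.0033. Erbb2, which encodes the receptor HER2, had 5.56, 5.66 and 5.65 FPKM.

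The genes that define basal cells were low. Krt5 was not listed, Krt14 was at 0.82, 0.85 and 0.88, and the basal regulator gene Trp63 at 0.72, 0.51 and 0.6. The contractile genes Acta2 and Myh11 had means of 2.27 and 0.01, and the oxytocin receptor gene Oxtr 0.027. The basal list was carried instead by the laminin receptor gene Itga6 at 87.1, the protein C receptor gene Procr at 27.4 and the Notch ligand gene Dll1 at 13.6. Of genes often used as stem cell markers, 11 of 20 reached 1 FPKM, among them Cd44 at 80.1, Sox9 at 23.04 and Ly6a, which encodes Sca-1, at 23.6, while Lgr5 and Prom1 had means of 0.02 and 0.047.

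Of 15 milk genes, 5 reached 1 FPKM (33.3%). The milk fat globule protein gene Mfge8 was at 122, 128 and 125, and Plin2 and Xdh, which act in lipid droplets, at means of 98.9 and 39.3. The major caseins and whey proteins were not listed in any library: Csn1s1, Csn1s2a, Csn1s2b, Csn2, Wap and Lalba all counted as 0. Csn3, which encodes kappa casein, was the exception at 9.33, 16.4 and 10.1, highest in replicate 2. It lies apart from the other caseins in level although it shares their cluster on chromosome 5, and its nearest annotated neighbours BC037156 and Cabs1 were not listed. The gene model 1700066N21Rik overlaps Csn3 in the annotation, and whether the counting used strand is not given in the sources used here.

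The mesenchymal programme was present in part, and its intermediate filament gene ranked 17 among all identifiers. Vim, which encodes vimentin, was at 1572, 1553 and 1594, and exceeded Krt8 by a ratio of 7.34 ± 0.275 with little movement between libraries. S100a4, a calcium-binding protein gene linked to cell motility, was at 1173, 622 and 957, so replicate 2 had the lowest level by far. Fibronectin (Fn1) was at 222, 293 and 256, and the matrix protein gene Sparc at 159.6, 144 and 151. Of 36 genes on the list, 19 reached 1 FPKM, or 52.8%.

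Transcription factors that drive mesenchymal states were present for some families and absent for their paralogues. Twist1 was at 27.9, 25.9 and 25.2, Snai1 at 21.7, 22.1 and 22.9 and Zeb2 at 16.1, 18.9 and 17.6. Their paralogues Twist2 and Zeb1 had means of 0.04 and 0.16, and Snai2 was not listed. Twist1 exceeded Snai1 in every pairing of libraries, and Snai1 exceeded Zeb2. Genes of fibroblast matrix were almost silent: the collagen I genes Col1a1 and Col1a2 had means of 0.38 and 0.0033, and Col3a1, Lum and Thy1 were not listed. The platelet-derived growth factor receptor gene Pdgfra was nonetheless at 42.8, 42.4 and 44.6, and the proteoglycan gene Dcn at 7.99, 8.16 and 7.55.

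Of the Hox clusters, whose genes pattern the body axis, only HoxA had members at 1 FPKM or more. In the HoxA cluster on chromosome 6, 6 of 11 genes reached 1 FPKM. Hoxa5 was highest at 22.5, 17.9 and 22.6, followed by Hoxa2 at 12.3 and Hoxa10 at 11.6, which overlapped each other. Hoxa4, next to Hoxa5, had only 0.55, and Hoxa6 on its other side was not listed. In the annotation Hoxa3, at 8.39, spans all of Hoxa4, Hoxa5 and Hoxa6, and without a stated strand reads from overlapping genes cannot be told apart. None of the 10 HoxB, 9 HoxC and 9 HoxD genes reached 1 FPKM, and no HoxB gene was listed at all. Among other lineage factors, Sox4 was at 59.7, Ets1 at 58.2 and Etv4 at 43.7, and the Gata family held Gata4 at 3.65 and Gata2 at 1.09 besides Gata3.

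Among secreted factors, those that act on blood cells were prominent. Of 12 haematopoietic factor genes, 8 reached 1 FPKM, or 66.7%. Tslp, which encodes thymic stromal lymphopoietin, a cytokine of epithelia, was highest at 213, 202 and 198; the annotated model 4930455D15Rik overlaps it. Csf3, which the model Gm38985 overlaps, stood below it, at 81.1 ± 3.58, and Csf1, which encodes the macrophage growth factor, below that at 65.1, 70.8 and 61.3, and these 3 did not overlap. Csf2, the granulocyte and macrophage factor gene, was at 5.44, 5.14 and 6.12, so that Csf3 exceeded it by a ratio of 14.6 ± 1.09. Il34, the second ligand of the Csf1 receptor, had a mean of 6.097, Kitl 6.81 and Flt3l 6.86, and these overlapped. Il3 and Epo were not listed.

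Chemokine expression rested on a few neutrophil and monocyte attractants. Of 38 chemokine genes, 13 reached 1 FPKM and 3 exceeded 100. Cxcl1 was at 772, 618 and 645 and Cxcl5 at 718, 578 and 598, both ligands of the neutrophil receptor Cxcr2. Their ranges overlapped, but Cxcl1 was higher within each library at a ratio of 1.07 ± 0.0038, the ratio with the smallest SD of the 14 computed. Ccl2, the main monocyte attractant, was at 363, 285 and 308. The next 4 were Cxcl16 at 36.6, Ccl20 at 26.6, Ccl7 at 19.3 and Ccl5 at 17.8. Cxcl2 and Cxcl3, close relatives of Cxcl1, had only 1.82, 3.03 and 2.52 for Cxcl2 and 0.38, 0.38 and 0.19 for Cxcl3. The T cell attractants Cxcl9 and Cxcl10 had means of 0.01 and 3.27, and Cxcl12, the stromal chemokine, was not listed.

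Interleukin, TNF and interferon genes were mostly silent. Of 55 such genes, 12 reached 1 FPKM, or 21.8%, and 12 were not listed. Mif, which encodes macrophage migration inhibitory factor, stood far above the rest at 393, 369 and 405. It was followed by the leukaemia inhibitory factor gene Lif at 17.6, 14.2 and 19.6 and by Il23a, the specific subunit gene of interleukin 23, at 12.98, 18.5 and 12.2. Il12b, which encodes the other subunit of interleukin 23, was not listed. Il11 and Il6, cytokines that signal through gp130, had means of 7.03 and 5.35. The inflammatory cytokine genes Tnf, Il1a and Il1b stayed below 1 FPKM with means of 0.13, 0.53 and 0.26, Ifnb1 was at 0.013, and none of 13 interferon alpha genes reached 0.1.

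**Figure D3:**
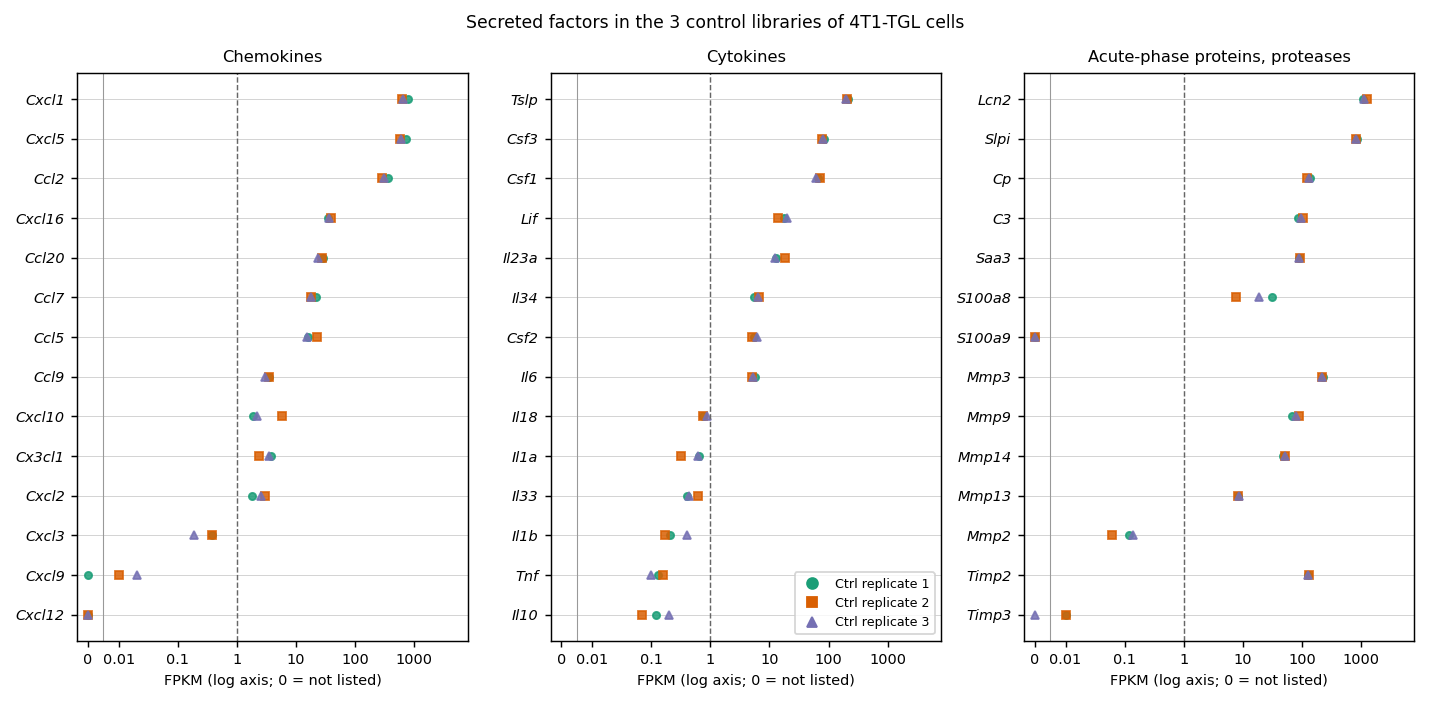
FPKM (log axis, points at 0 for genes not listed) of chemokine genes, cytokine genes, and acute-phase and protease genes in control replicates 1, 2 and 3 (symbols), with 1 FPKM dashed. Cxcl1, Cxcl5, Lcn2 and Slpi lie above 100 FPKM in every library and S100a9 lies at 0. Among the genes shown with a mean of 5 FPKM or more, S100a8 has the largest ratio of highest to lowest library.

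Growth factors of the EGF, VEGF and PDGF families were present in numbers near the background, with 28 of 65 genes at 1 FPKM or more (43.1%). Areg, a ligand of the EGF receptor, was at 66.7, 109 and 82.8, and Hbegf and Tgfa, other ligands of it, had means of 31.7 and 19.9. Vegfa, the main angiogenic factor gene, was at 55.8, 63.4 and 74.5, Pgf at 25.2 and Pdgfa at 30.7. Fgf2, Igf1 and Fgf10 were not listed, and Hgf and Gas6 had means of 0.01 and 0.013. The highest members of the list were Hdgf and the progranulin gene Grn, at 229 and 149.

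In the TGF-beta family, 12 of 41 genes reached 1 FPKM (29.3%). Tgfb1 was at 37.4, 41.3 and 37.8, Tgfb3 at 13.6, 14.2 and 13.9 and Tgfb2 at 3.8, 3.73 and 3.76, an order without overlap. The latent binding protein genes Ltbp1, Ltbp2, Ltbp3 and Ltbp4, which store the ligands in the matrix, were all present, between 17.4 and 39.97. Bone morphogenetic protein ligand genes such as Bmp2, Bmp4 and Bmp7 were at or near 0, and Bmp1, which is a protease despite its name, was at 71.3. Of 33 secreted Wnt pathway genes only 4 reached 1 FPKM: Wnt7b at 19.97, 27.4 and 22.9, Wnt10a at 5.02, Wnt10b at 4.83 and the inhibitor gene Sfrp1 at 2.94. The other inhibitor genes Dkk1, Dkk2, Dkk3 and Wif1 were not listed.

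Some genes for innate defence and acute-phase proteins had RNA levels among the highest of genes for secreted products. The list as a whole, with 15 of 33 genes at 1 FPKM or more (45.5%), was near the background. Lcn2, which encodes the iron-siderophore binder lipocalin 2, was at 1096, 1273 and 1125. The antiproteases Slpi and Wfdc2 were at 844, 830.1 and 830.3 for Slpi and 481, 504 and 519 for Wfdc2. Complement C3 was at 84.6, 106 and 95.5 and the serum amyloid gene Saa3 at 88.7, 92.3 and 88.7. S100a8 was at 31.2, 7.54 and 18.5, and the gene of its usual partner, S100a9, was not listed in any library. Replicate 2 had the lowest S100a8. The S100a8 ratio of highest to lowest, 4.14, was the largest among named genes listed in every library with means of 5 FPKM or more.

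Proteases and their inhibitors were well represented, with 34 of 53 genes at 1 FPKM or more (64.2%). Ctsl, a lysosomal and secreted cathepsin gene, was at 382, 424 and 392, above Ctsb at 95.1, 116 and 101 by a ratio of 3.85 ± 0.187. Of the matrix metalloproteinases, Mmp3 was at 231, 218 and 222 and Mmp9 at 68.7, 90.2 and 78.9, with a ratio of 2.87 ± 0.475, and the membrane-bound Mmp14 had a mean of 50.4. Mmp2, Mmp7 and Mmp12 had means of 0.11, 0.01 and 0.083. Among inhibitors, Timp2 was at 127, 131 and 127 and Timp1 at 42.6, while Timp3 had 0.0067 and Timp4 was not listed. The urokinase gene Plau was at 34.7 and its inhibitor gene Serpine2 at 203.

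Of 61 matrix genes, 34 reached 1 FPKM (55.7%). The laminin chain genes Lamb1, Lama5 and Lamc1 were at 130.3, 109 and 84.6, and the collagen IV genes Col4a1 and Col4a2 at 89.9 and 53.5. The fibrillar genes Col1a2, Col3a1 and Col5a2 were at 0.0033 or not listed, although Col5a1 was at 30.6. Spp1 was at 2010.2, 2310.1 and 2043, and its receptor genes Cd44 and Itgav were at 80.1 and 44.9.

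Receptor tyrosine kinase genes reached 1 FPKM in 25 of 54 cases (46.3%). Axl, which binds the ligand Gas6, was highest at 221, 257 and 225, and Epha2, an ephrin receptor gene, followed at 68.6, 103 and 78.5. The collagen receptor gene Ddr2 was at 61.6, Pdgfra at 43.3, Fgfr2 at 31.3, and Met, the receptor gene for hepatocyte growth factor, at 26.4. Egfr was low at 1.61, 1.48 and 1.54, Erbb3 had a mean of 0.26, and Erbb4 was not listed. Csf1r, Kit and Kdr, receptors of macrophages, mast cells and endothelium, had means of 0.01, 0.0067 and 0.0033. Flt1, which like Kdr encodes a receptor for Vegfa, was present at 6.97.

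Of 56 cytokine receptor genes, 24 reached 1 FPKM (42.9%), among them those of the gp130 and interferon systems. Il6st, which encodes gp130, was at 66.5, 69.3 and 67.5, and its partner genes Osmr and Il6ra at 23.6 and 15.2, while Lifr had 0.17. The interferon receptor genes Ifnar1, Ifnar2, Ifngr1 and Ifngr2 were at 12.7, 44.9, 21.4 and 30.9. On the TNF receptor list 15 of 28 genes reached 1 FPKM, led by Tnfrsf12a, the TWEAK receptor gene, at 98.05, 134 and 104, then Tnfrsf1a at 41.1, Tnfrsf1b at 30.8 and the death receptor gene Fas at 30.5. Both signalling receptors for TGF-beta were present, Tgfbr1 at 39.3, 38.6 and 39.05 and Tgfbr2 at 18.3, 17.2 and 18.8.

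Chemokine receptors were the emptiest receptor list, with 2 of 23 genes at 1 FPKM or more (8.7%). These were the scavenging receptor gene Ackr3 at 14.5, 15.3 and 17.3 and Ccr10 at 1.39, 1.5 and 1.2. The count was 4 at a threshold of 0.5 FPKM or with TPM and 1 at 2 FPKM. Cxcr2 was at 0.51, 0.59 and 0.67, Cxcr4 had a mean of 0.0067, and Ccr2 and Ccr6 were not listed. Among integrins, 14 of 27 genes reached 1 FPKM: the laminin receptor genes Itga3 at 159, 207 and 175 and Itga6 at 87.1, and the common beta chain gene Itgb1 at 145, 147 and 145. Of nuclear receptors, 19 of 33 reached it, among them the retinoic acid receptor genes Rarg and Rara at 29.99 and 28.9 and the glucocorticoid receptor gene Nr3c1 at 22.3.

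Ligands and receptors were set side by side in 44 textbook pairs, chosen after the levels were known. The counts below therefore depend on that choice and describe these pairs only. The pairs held 32 ligand genes, each counted once per receptor gene. A ligand may thus fall in more than 1 group below, as Lif did with Lifr and Il6st. In 18 pairs both genes reached 1 FPKM, in 16 only the ligand, in 9 only the receptor and in 1 neither. The ligand-only group included factors for blood cells: Csf3 beside Csf3r at 0.013, Csf1 beside Csf1r at 0.01, and Ccl2 and Ccl20 beside Ccr2 and Ccr6, which were not listed. Other pairs were in this group too, such as Vegfa beside Kdr at 0.0033. The receptor-only group included Axl beside Gas6 at 0.013, Met beside Hgf at 0.01, and Igf1r, at 13.6, beside Igf1, which was not listed. Both genes were present for Pdgfa and Pdgfra, for Tgfb1 and its receptors, and for Tslp and Crlf2 (at 3.47, while Il7r, the second receptor chain, was not listed). The pairs of Areg, Hbegf and Tgfa with Egfr also counted as present, but Egfr was only at 1.54.

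**Figure D4:**
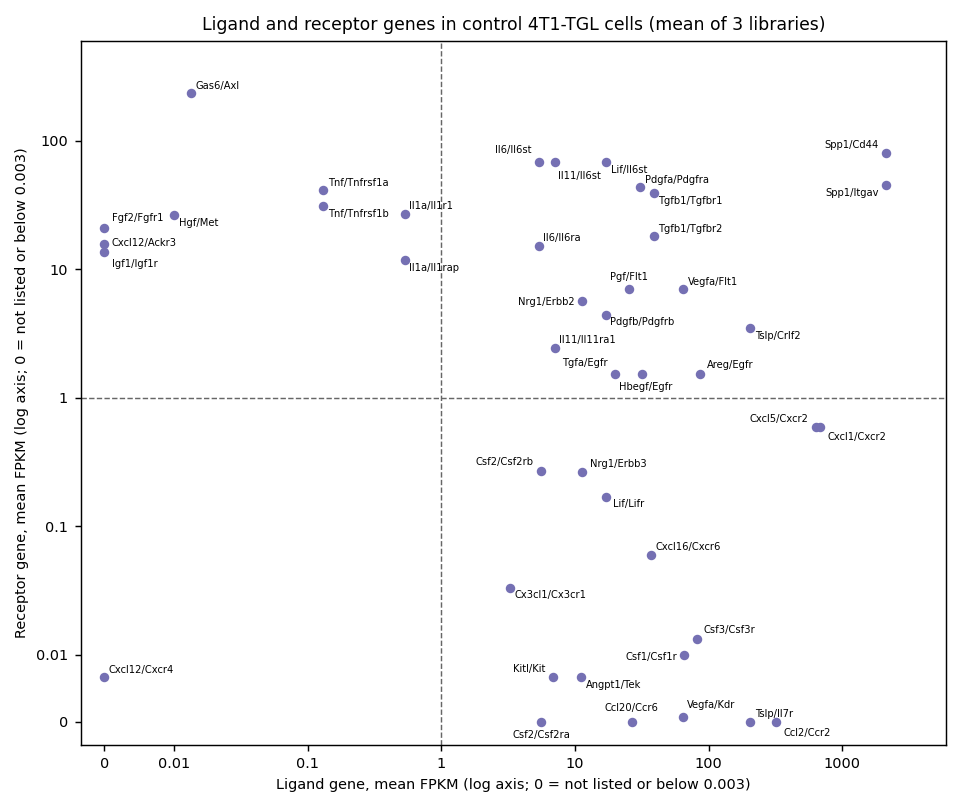
Mean FPKM of the ligand gene (horizontal, log axis) and receptor gene (vertical, log axis) of 44 pairs over the 3 control libraries, 1 point a pair, with 1 FPKM dashed on both axes. The upper right field holds 18 pairs, the lower right 16, the upper left 9 and the lower left 1. The pairs were chosen after the levels were known.

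Antigen presentation by MHC class I was transcribed almost in full and class II was not. Of 30 class I genes, 28 reached 1 FPKM (93.3%). B2m, the light chain gene, was at 581, 643 and 576, and the heavy chain genes H2-D1 and H2-K1 were at 125, 165 and 139.9 for H2-D1 and 103, 127 and 116 for H2-K1. H2 genes are near-identical copies, so the division of reads among them is uncertain. The peptide transporter genes Tap1 and Tap2 were far lower at 5.8 and 11.97, and the immunoproteasome gene Psmb9 was at 2.803. In class II, Cd74, the invariant chain gene, was at 10.4, 14.6 and 11.5, but H2-Aa was not listed and H2-Ab1 and the class II regulator gene Ciita had means of 0.69 and 0.09.

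Ligands and enzymes that act on T and NK cells were unevenly present, with 19 of 37 genes at 1 FPKM or more. Cd274, which encodes PD-L1, was at 0.49, and Pdcd1lg2 at 0.01. The prostaglandin synthase gene Ptgs2 was at 93.3, 112 and 103, the phagocytosis inhibitor gene Cd47 at 51.3, 54.2 and 54.01, and Pvr and Nectin2, ligands of the receptor Tigit, at 31.97 and 33.2. Nos2 was at 19.12, 14.1 and 28.3, lowest in replicate 2, while Arg1 was not listed and Ido1 was at 0.013. Tigit itself, a receptor gene of T and NK cells, was at 31.4, 31.6 and 29.1. In the annotation it overlaps one end of Zbtb20, which had a mean of 3.39, and without a stated strand reads from overlapping genes cannot be told apart. The T and NK defining genes Cd3e, Cd4, Ncr1 and Nkg7 were at 0.0067 or not listed, while Lck, a T cell kinase gene, was at 1.27, 2.45 and 1.94 and Eomes, a transcription factor gene of NK and T cells, at 2.2, 2.72 and 2.28.

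Genes of the NF-kB pathway were all present. All 21 members of the NF-kB list reached 1 FPKM, against 48.3% of protein-coding genes, with a median of 27.2 FPKM. Tnfaip2 was at 169.5, 187 and 182, the inhibitor gene Nfkbia at 145, 123 and 141 and the subunit gene Nfkb2 at 75.9, 110.0 and 85.7. The adhesion molecule genes Vcam1 and Icam1 were at 67.5 and 21.8.

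Interferon-stimulated genes were present at low levels: 40 of 57 reached 1 FPKM (70.2%), with a median of 2.86. Ifitm3 and Ifitm2, which restrict virus entry, were far above the rest at 287, 279.7 and 290.4 for Ifitm3 and 212, 175 and 210.1 for Ifitm2, and these are near-identical copies whose reads may be shared. The regulator gene Irf1 was at 42.8, Isg15 at 6.22, and the antiviral genes Mx1 and Oas2 at 0.13 and 0.14.

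Of 47 innate sensor and inflammasome genes, 25 reached 1 FPKM (53.2%), and those of pyroptosis, an inflammatory cell death named in the study's title, were present in part. Gsdmd, the pore-forming gasdermin gene, was at 24.8, 25.7 and 26.99, and Gsdme at 5.003. The inflammatory caspase genes Casp1 and Casp4 were at 15.6, 14.4 and 16.1 for Casp1 and 10.2, 11.9 and 10.5 for Casp4. Pycard, which encodes the adaptor ASC that joins sensors to caspase 1, was at 0.01, 0.01 and 0.03, and Nlrp3 and Nlrc4 had means of 0.5 and 0.0067. The nucleic acid sensing genes Cgas, Sting1 and Mavs were at 5.58, 20.4 and 18.9, and the surface sensor genes Tlr4 and Tlr2 at 10.5, 7.11 and 10.02 for Tlr4 and 9.04, 6.53 and 9.04 for Tlr2, both lowest in replicate 2.

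Cell cycle genes were present nearly in full. Of 34 cell cycle genes, 33 reached 1 FPKM. Ccnd1, which encodes cyclin D1, was at 299.5, 304 and 292, while Ccnd2 had a mean of 0.033. The proliferation genes Top2a and Mki67 were at 274, 216 and 262 for Top2a and 116, 79.8 and 108 for Mki67, lowest in replicate 2. Myc was at 142, 188 and 153 and Trp53, the p53 gene, at 26.4, 48.97 and 33.1, both highest in replicate 2. The tumour suppressor genes Cdkn2a and Cdkn2b, side by side on chromosome 4, were not listed in any library, although Mtap, the next gene, was at 269.9, 260.4 and 264. On the other side Dmrta1 had a mean of 0.0067.

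Glycolytic genes reached 1 FPKM in 18 of 21 cases. Pkm was at 1057 ± 70.5, Aldoa at 829 ± 61.7 and Ldha, which makes lactate, at 762, 585 and 767. The other subunit gene of lactate dehydrogenase, Ldhb, had only 0.08, 0.1 and 0.05. The lactate exporter gene Slc16a3 was at 0.02 and Slc16a1, a related transporter gene, at 36.2. All 20 AP-1 and YAP pathway genes reached 1 FPKM, with Fosl1 at 83.4, 98.3 and 99.98 and Fos at 2.71. Of long noncoding RNAs, Neat1, which builds paraspeckles, stood above its neighbour Malat1 at 304, 247 and 315, an FPKM ratio of 4.30 ± 0.217. How well each of these RNAs was captured in the libraries was not tested, so their ratio in the cells may differ. The 13 protein-coding genes of the mitochondrial genome were not listed in any library. The provider's gene models may not have held them, so this is not read as a sign that they are silent. Xist, the RNA of the inactive X chromosome, was at 0.01 FPKM in each library, and none of 256 Y-linked protein-coding genes reached 1 FPKM.

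Markers of other cell types were low as a group. Of 126 marker genes of macrophages, neutrophils, T, NK and B cells, endothelium, fibroblasts and adipocytes, 11 reached 1 FPKM (8.73% beside the background of 48.3%) and 56 were not listed. Their summed level was between 141.5 and 154.0 FPKM per library, of which Pdgfra alone gave 43.3. The leukocyte gene Ptprc and the macrophage gene Adgre1 had means of 0.0067 and 0.0033, Lyz2 and Tyrobp were not listed, and neither was the B cell gene Ms4a1. Of 16 endothelial genes, 3 reached 1 FPKM (18.8%), among them Eng, which other cells also use, at 19.8. Pecam1 and Cdh5 were at 0.027 and 0.05, while Flt1, a receptor gene for Vegfa, was at 6.97. Macrophage-associated Cd68 and Cd14 were at 14.8 and 13.01. The B cell and adipocyte lists had no member at 1 FPKM or more, but without replicate 2 the adipocyte count was 1, with Pparg at 0.99, 0.69 and 1.01 in the 3 libraries.

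Programmes of unrelated tissues were silent apart from single genes. Of 213 genes of neurons, striated muscle, liver, pancreas and gut, blood, germ cells, pluripotent cells, melanocytes, sense organs and the Y chromosome, 17 reached 1 FPKM (7.98%) and 112 were not listed. Alb, the serum albumin gene, Ins2, Myod1, Pou5f1 and Sox2 were among those not listed. The pluripotency list was carried by Klf5 and Klf4, at 42.3 and 8.34, which epithelia also express. The exceptions included the antiprotease gene Serpina1b, at 12.9, 14.99 and 14.5, whose copies are near identical, and 2 germ cell genes, Piwil4 at 3.17, 3.74 and 3.04 and Sycp1 at 1.84, 1.35 and 1.83. In the annotation Gm10706, Gm34651 and Gm15586 overlap Piwil4, and Gm33866 overlaps Sycp1. The pigment gene Slc24a5, at 7.23, 4.08 and 6.27, overlaps Myef2 in the annotation. Of 1110 olfactory receptor genes, 2 reached 1 FPKM, Olfr1318 at 6.18 and Olfr613 at 1.21, and of 353 vomeronasal receptor genes only Vmn1r58 did, at 1.92. The counted model of Olfr1318 was 12337 bases long, far longer than its RefSeq gene at chr2:112155898-112157007. Its reads may therefore lie outside the receptor gene.

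Promoter sequence differed between present and silent genes in its content of the dinucleotide CG, which vertebrate genomes keep in islands at the starts of widely used genes. Alb and Yap1, which encodes a growth regulator, are shown as examples of the 2 kinds, with each CG in capitals. Alb lies at chr5:90460620-90460919 on the plus strand and Yap1 at chr9:8004547-8004846 on the minus strand, in the same windows of 300 bases on GRCm38.p6 from RefSeq.
Alb: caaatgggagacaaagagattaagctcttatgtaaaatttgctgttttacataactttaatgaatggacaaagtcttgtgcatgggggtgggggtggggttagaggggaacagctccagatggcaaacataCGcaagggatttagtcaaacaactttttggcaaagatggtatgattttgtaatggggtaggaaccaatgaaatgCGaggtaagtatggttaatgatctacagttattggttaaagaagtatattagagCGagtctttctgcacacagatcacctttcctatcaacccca
Yap1: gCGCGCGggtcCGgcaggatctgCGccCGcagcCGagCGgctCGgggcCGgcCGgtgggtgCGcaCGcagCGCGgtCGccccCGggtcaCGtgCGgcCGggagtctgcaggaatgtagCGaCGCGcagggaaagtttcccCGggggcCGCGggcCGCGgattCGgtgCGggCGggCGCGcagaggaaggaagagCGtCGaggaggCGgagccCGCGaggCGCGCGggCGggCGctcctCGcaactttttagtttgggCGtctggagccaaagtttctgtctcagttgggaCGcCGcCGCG
Alb, not listed, held 3 CG and Yap1, at 38.04, 41.3 and 38.6 FPKM, held 49. Among the 17492 promoters in the table, the median count was 22 for the 8612 genes at 1 FPKM or more and 4 for the 8880 below it or not listed. At least 10 CG were found in 86.8% of the former and 28.4% of the latter. The median rose from 3 for genes not listed to 20 at 1 to 10 FPKM and 23 at 10 to 100, and was 20 for the 27 genes at 1000 or more. TATAAA, searched on the strand of the gene only, was in 4.01% of promoters of genes at 1 FPKM or more, 13.9% of the others and 14.8% of the 27 highest. Krt8 held 6 CG and 1 TATAAA and Vim 11 CG and 1 TATAAA. Of the 26 acute-phase promoters in the table, 2 held at least 10 CG, and the median was 3.

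The control libraries differed from each other by more than counting error. Over genes at 1 FPKM or more, the median coefficient of variation of 7.34% compared with 2.75% from the counts alone, and 152 genes (1.32%) had a highest library at least 2 times the lowest. Several sets moved together with replicate 2. Of 29 target genes of the stress factor ATF4 at 1 FPKM or more, chosen after the values were seen, 26 were highest in replicate 2 and 27 lowest in replicate 1. Over all genes at 1 FPKM or more, replicate 2 was highest for 42.7% and replicate 1 lowest for 40.0%. The summed level of these targets was 1747, 2704 and 2071 FPKM in replicates 1, 2 and 3. Asns, which makes asparagine, was at 92.7, 182 and 115, the regulator gene Atf5 at 36.2, 96.5 and 55.1 and the amino acid transporter gene Slc7a5 at 52.9, 112 and 68.8.

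Sterol synthesis genes moved the other way. Of 23 at 1 FPKM or more, also chosen after the values were seen, 22 were lowest in replicate 2 and 20 highest in replicate 1. Over all genes, replicate 2 was lowest for 38.9% and replicate 1 highest for 31.5%. Their summed level was 439.96, 312.9 and 392.4 FPKM. Hmgcs1, an early enzyme gene of the pathway, was at 29.03, 14.1 and 21.5 and Idi1 at 25.1, 10.1 and 19.7. The small RNA host genes Gas5, Snhg1 and Snhg12 were highest in replicate 2, at 113, 215 and 123 for Gas5, 100.4, 197 and 110.1 for Snhg1 and 36.7, 102 and 55.7 for Snhg12. The state of each culture at harvest is not in the labels, and its part in these differences was not tested.

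**Figure D5:**
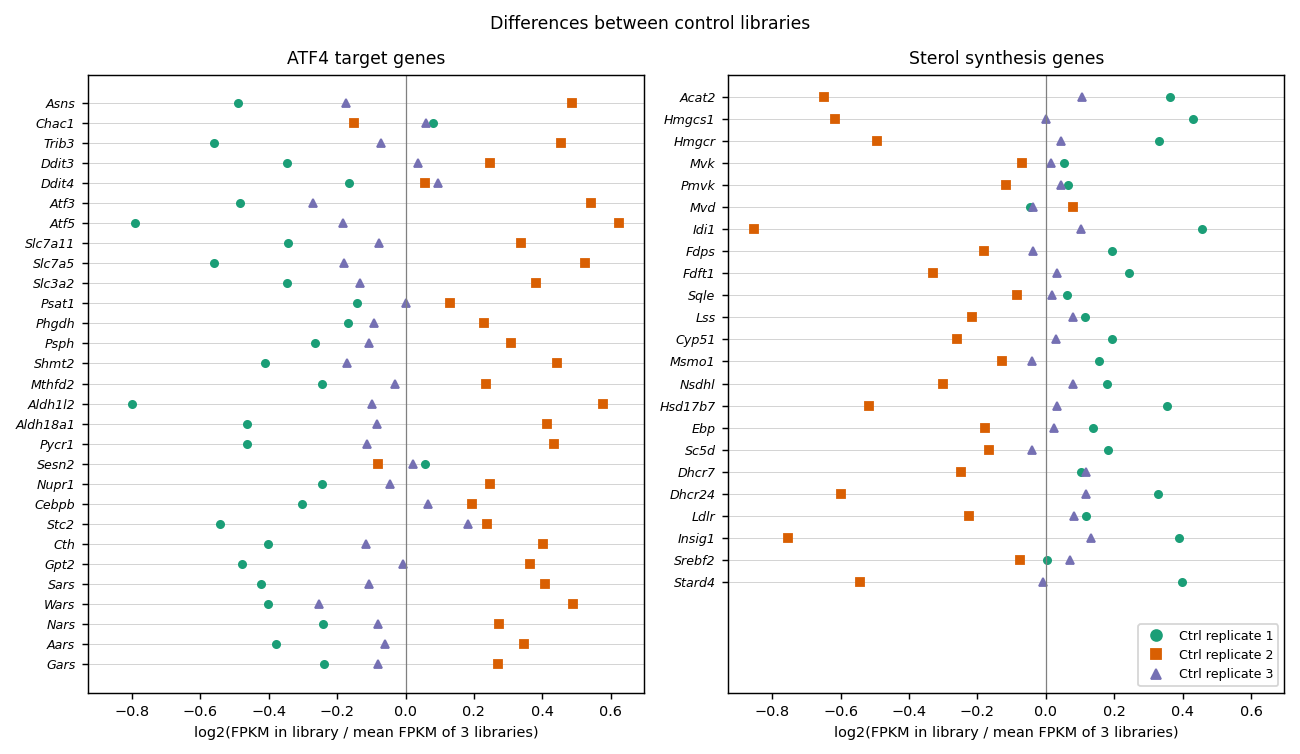
Level of ATF4 target genes (left) and sterol synthesis genes (right) in each control library relative to the mean of the 3 libraries, as log2 of the ratio (horizontal axis), 1 row a gene and 1 symbol a replicate. Replicate 2 lies rightmost for 26 of 29 genes on the left and leftmost for 22 of 23 genes on the right.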

How the data were processed

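RNA of the cells was extracted with a Maxwell kit and sequenced as paired-end reads on a BGISEQ-500, per the labels. HISAT and RSEM, with mouse builds mm10 and GRCm38, are named in the submitters' processing notes; versions are not given in the sources used here. The authors deposited, for each library, an estimated count and an FPKM value per gene; the sequencing provider's unnamed models are included. Whether counting used strand is not given in the sources used here. FPKM values were used as deposited; estimated counts gave depth and counting error. Symbols that a spreadsheet had turned into dates were restored by gene identifier, and lists and annotation were matched by symbol and identifier to RefSeq.

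The 3 control libraries form 1 group, so no test between groups was made. Lists were described by the number of members with a mean of 1 FPKM or more, beside the same share of all protein-coding genes. The members and lists were chosen with earlier results of these data known. Named genes were the markers Krt8, Krt18, Csf3 and Malat1, the 20 highest named genes, preset key members of each list, the 4 highest of each list, and the 10 genes at 5 FPKM or more that differed most between libraries. Not every such gene is printed, and other genes named were chosen after their values were seen. Near-identical gene copies may share reads. Some genes are not reported here. Alternatives changed the threshold, the unit (TPM), the scaling, the summary and the libraries. Python 3.11.15, numpy 2.4.6, pandas 2.3.3 and matplotlib 3.10.9 were used. Library scaling, the spread between libraries and a cut-off on level were tested on simulated counts, and the other steps were not.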

Additional observations from a re-analysis of the deposited data

How the results depend on the processing

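No paired analysis was possible because the control libraries form 1 group and no comparison between groups was tested. The number of genes at the threshold, 11482, ranged from 10663 (2 FPKM) to 12437 (TPM), and the number of lists with at least 1 in every 2 members at it, 20, from 16 to 22. The share of the 10 highest identifiers, 6.0%, became 6.37% with named genes only and 4.12% as a share of estimated counts, and that of the 100 highest, 26.2%, became 15.8% of estimated counts; counts are not divided by length. Leaving out each library in turn gave 11481 to 11521 genes, 19 to 21 lists, shares of 5.95% to 6.03% and 26.1% to 26.3%, and a median coefficient of variation of 4.31% (without replicate 2) to 8.05%. Of 589 neighbouring pairs in the lists' orders of level, 262 did not overlap between libraries, 270 after median-of-ratios scaling and 291 to 375 with 2 libraries, which leave fewer values to overlap. Of 510 list counts under alternatives, 25 moved by over 1.5 times, 15 of them with thresholds of 0.5 or 2 FPKM and 8 with TPM. On the TPM scale Krt8 was at 486, Krt18 at 565, Csf3 at 184 and Malat1 at 152. TPM multiplies every FPKM value of a library by the same factor. A cut at 1 TPM was therefore lower than 1 FPKM, as 0.5 FPKM was, so these alternatives are not independent. With 3 libraries of 1 group, a level below 1 FPKM is a statement about these libraries, and a gene not listed may have had reads under the listing minimum of 0.01 FPKM or in an unnamed model.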

Other observations

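Several membrane and cytoskeletal gene families had abundant members. In the S100A family of calcium-binding proteins, 9 of 15 genes reached 1 FPKM, and S100a6 was at 1264, 939 and 1197 and S100a11 at 799.9, 414 and 609 FPKM, both lowest in replicate 2. Of 12 annexin genes, which encode calcium-dependent membrane binders, 9 reached it, with Anxa2 at 623, 592 and 644, Anxa5 at 316 and Anxa1 at 303. All 4 syndecan genes, which encode surface proteoglycans, were present, led by Sdc4 at 231, 196 and 235.

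Of the genes for caveolae, small pits of the cell membrane, Cavin1, Cavin3, Cavin2, Cav1 and Cav2 had means of 90.4, 75.7, 64.4, 33.2 and 23.1 FPKM, while the muscle forms Cav3 and Cavin4 were not listed. The cytoplasmic actin genes Actb and Actg1 were at 768 and 648, and the muscle actin genes Acta1 and Actg2 at 0.24 and 0.24. In the Stat family of signal transducers, 6 of 7 genes reached 1 FPKM, with Stat3 at 42.5 and Stat4 at 0.0067. None of 42 beta-defensin genes, 35 bitter taste receptor genes and 10 granzyme genes did.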
